A study of Mus musculus with 36 samples.

Results

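The ureteric bud is the epithelial tube that grows out of the nephric duct into the metanephric mesenchyme, branches there, and forms the ureter and the collecting ducts. The mesenchyme around it holds nephron progenitors (NP), which make the nephrons, and stromal progenitors (SP), which make the interstitium. Growth of the bud depends on GDNF from the mesenchyme, which acts on the receptor RET and its co-receptor GFRA1 on bud cells, while WNT9B from the bud acts back on the progenitors. The RNA-seq libraries described here ask what sets the bud apart from both mesenchymal neighbours at once.

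The comparison used the 4 libraries titled E11.5 ureteric bud (UB), 4 titled E11.5 NP and 4 titled E11.5 SP, that is 12 of the 36 libraries of the series, which also holds the same ex-fetu cell types at E12.5 and induced populations made from mouse embryonic stem cells. All 12 came from kidneys of CD1 mouse embryos, with all embryos of 1 mouse pooled as 1 sample, so each library is an average over a litter. Cells were separated by fluorescence-activated sorting, UB as RET-positive and EpCAM-positive cells, NP as ITGA8-high and PDGFRA-low cells, and SP as ITGA8-low and PDGFRA-high cells after CD31-positive and EpCAM/RET-positive cells had been gated away. The transcripts of the gate proteins (Ret, Epcam, Itga8, Pdgfra and Pecam1) are therefore descriptions of the sort and not findings. A label conflict bears on every result: the 4 UB samples titled E11.5 carry a cell source of E12.5, and the 4 titled E12.5 carry a cell source of E11.5, whereas title and source agree in NP and SP. The titles were followed, so that if the cell source is right the bud is older than the mesenchymes it is compared with, and stage and cell type then cannot be told apart. With the UB libraries titled E12.5 in their place, 2726 genes were higher and 2313 lower than in both mesenchymes, of which 2017 and 1577 were among the 2485 and 2492 genes reported below. The first of these libraries held mesenchymal transcripts at far higher levels than the other 3, as described with the libraries titled E12.5, and without it the numbers were 2952 and 2671, of which 2071 and 1800 were shared.

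Values are normalised CPM as deposited (reads of a gene scaled by library size and a normalisation factor), and differences are on the log2(normalised CPM + 1) scale, which understates the change of low genes. A gene was tested if it reached a normalised CPM of at least 1 in 4 of the 12 libraries, and 14500 of 22761 genes did. Of these, 7417 (51.2%) differed between UB and NP at an adjusted p under 0.05 (limma, Benjamini-Hochberg adjustment) and 8346 (57.6%) between UB and SP. Bud-high genes, 2485 in number (17.1% of those tested), were higher in UB than in NP and also higher than in SP, and bud-low genes, 2492 (17.2%), were lower than in both. A further 511 genes differed from both mesenchymes in opposite directions, 4787 differed from 1 mesenchyme only and 4225 from neither. Among bud-high genes, 1163 exceeded a log2 difference of 1 against both mesenchymes and 217 exceeded 3. Among bud-low genes, 642 and 92 did. Since the 2 contrasts share the UB libraries, the number in both classes is the outcome of the rule and not evidence on its own. In 377 of the bud-high genes every NP and SP value was under 1, so that they entered the test through UB alone, and in 310 of the bud-low genes every UB value was under 1. The gene just inside the threshold was Plp2, a membrane proteolipid gene, with differences of 0.39 and 1.31 and a larger adjusted p of 0.04999. The one just outside it was Ap4m1, an adaptor complex subunit, with -0.51 and -0.29 and 0.05005.

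**Figure D1:**
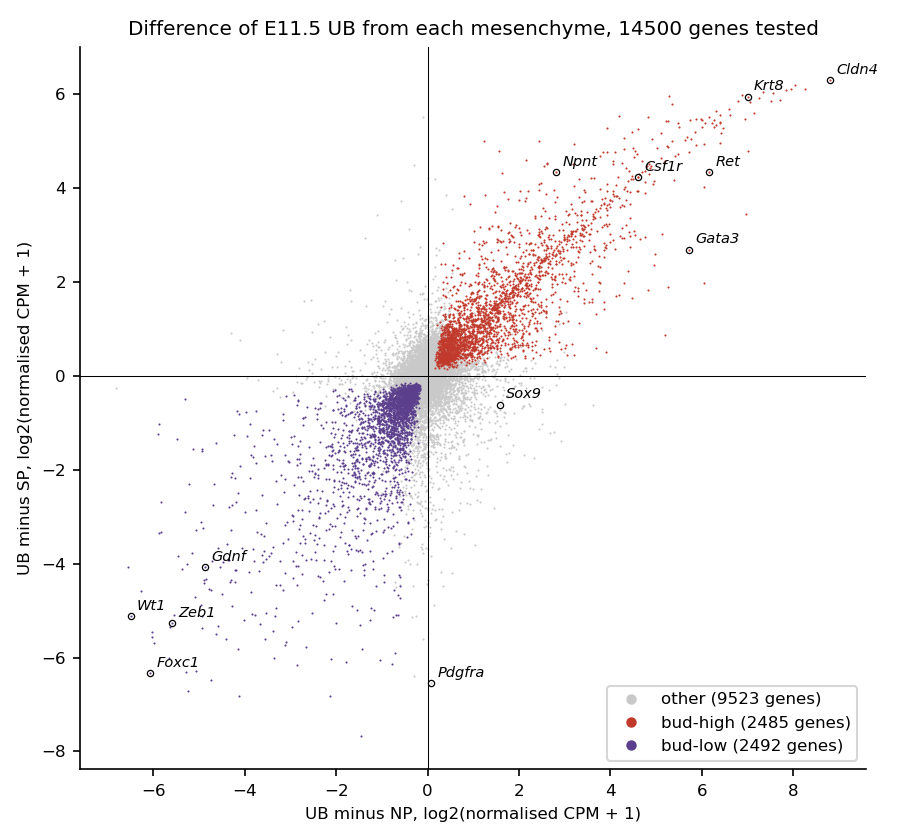
Each point is 1 of the 14500 genes tested, with the log2 difference of E11.5 UB from NP on the x axis and from SP on the y axis, both in log2(normalised CPM + 1). Red marks the 2485 bud-high genes and purple the 2492 bud-low genes. Cldn4 lies farthest toward the upper right and Foxc1 toward the lower left, whereas Pdgfra, a gate gene of SP, differs from SP alone.

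Between 24000662 and 43149557 reads on genes were recovered per library, so that 3 reads correspond to a normalised CPM of 0.0729 to 0.128. Replicates correlated at 0.9916 to 0.996 in UB, 0.9882 to 0.9965 in NP and 0.9675 to 0.9944 in SP. The SP libraries were the least alike. Hoxd13, a gene of the caudal end of the body, was at 176 and 124 in SP-1 and SP-2 but 42.1 and 26.8 in SP-3 and SP-4. SP-4 held the least Mki67, a proliferation marker, at 16.4 against 85 to 359, and the most Hbb-y, an embryonic globin, at 989.6 against 39.2 to 165. Without SP-4 the counts were 2662 bud-high and 2760 bud-low genes, of which 2431 and 2406 were in the original sets.

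The labels were checked against marker genes. Ret, the GDNF receptor, was at 361 to 369 in UB, 2.05 to 5.71 in NP and 6.22 to 29.1 in SP. Epcam, an epithelial adhesion molecule, was at 657 to 670.4 in UB, 6.74 to 11.4 in NP and 10 to 23.4 in SP. Calb1, the calcium-binding protein calbindin that fills the bud epithelium, was not used in any gate. It was at 617, 518, 686 and 612 in UB, at 0.273, 1.98, 0.81 and 1.3 in NP, and at 7.51, 4.89, 18.6 and 5.33 in SP, and it exceeded NP by 8.25 ± 0.33 (SE) and SP by 6.09 ± 0.33 on the log2 scale (adjusted p = 1.3e-10 and 2.5e-09, limma). Every UB library lay far above every mesenchyme library for all 3 markers, which for the gate genes Ret and Epcam follows from the sort. Six2, which maintains nephron progenitors, was at 557 to 641 in NP against 12.9 to 15.1 in UB. The nephron progenitor marker Cited1 did not tell NP from UB, at 18.4 to 42.6 in NP and 18.6 to 21.6 in UB. Foxd1, the defining stromal regulator, was at 265 to 563 in SP and 44.3 to 92.9 in NP against 2.08 to 2.81 in UB. Bud transcripts were also found at a low level in SP: Calb1 in SP-3 stood at 3.06% of its UB mean, and at 0.804% to 1.23% in the other SP libraries, while Ret stood at 7.99%, 5.76%, 6.05% and 1.71% in SP-1 to SP-4 and so did not keep the ratio of Calb1. In NP, Ret stood at 0.564% to 1.57% of its UB mean and Calb1 at 0.0448% to 0.326%. A set of 32 junction genes was taken, Epcam left aside, that were bud-high with both log2 differences beyond 1. Their median level was 1.2% to 2.87% of the UB mean in the NP libraries and 1.04% to 3.1% in the SP libraries. As they were chosen for low mesenchyme values, these levels are low in part by that choice. The part of such transcripts in the differences was not tested.

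Markers of 1 other cell type moved with the bud. All 12 genes of a macrophage list were bud-high (17.1% over all genes tested). Since 11 of the 12 were under 1 in every NP and SP library, they passed the filter through UB alone, and nothing is read from that count. Their summed normalised CPM was 100.4 to 169 in UB, 4.01 to 5.91 in NP and 4.79 to 9.58 in SP. Csf1r, the receptor on which macrophages depend, was at 31.6, 28.7, 20.2 and 36.6 in UB, at most 0.513 in NP and at most 0.734 in SP. C1qa, a complement subunit that tissue macrophages make, was at 9.71 to 15.2 in UB and at most 0.278 elsewhere. In these bulk libraries more cells of a type and more RNA per cell cannot be told apart. In the libraries titled E12.5 the macrophage sum was 82.5 to 142 in UB, 2.28 to 11.8 in NP and 4.43 to 20.9 in SP. Endothelial markers summed to 26.7 to 41.8 in UB, 21.5 to 56 in NP and 35.4 to 77.4 in SP. Much of the UB sum was Egfl7, and without it the sums were 7.64 to 21.5, 16.1 to 44.7 and 29.1 to 64.9. Erythroid markers summed to 11.3 to 61.4 in UB, 20.5 to 82.1 in NP and 99.4 to 1597 in SP, the highest sum being that of SP-4. The part of any of these cells in the other results was not tested.

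**Figure D2:**
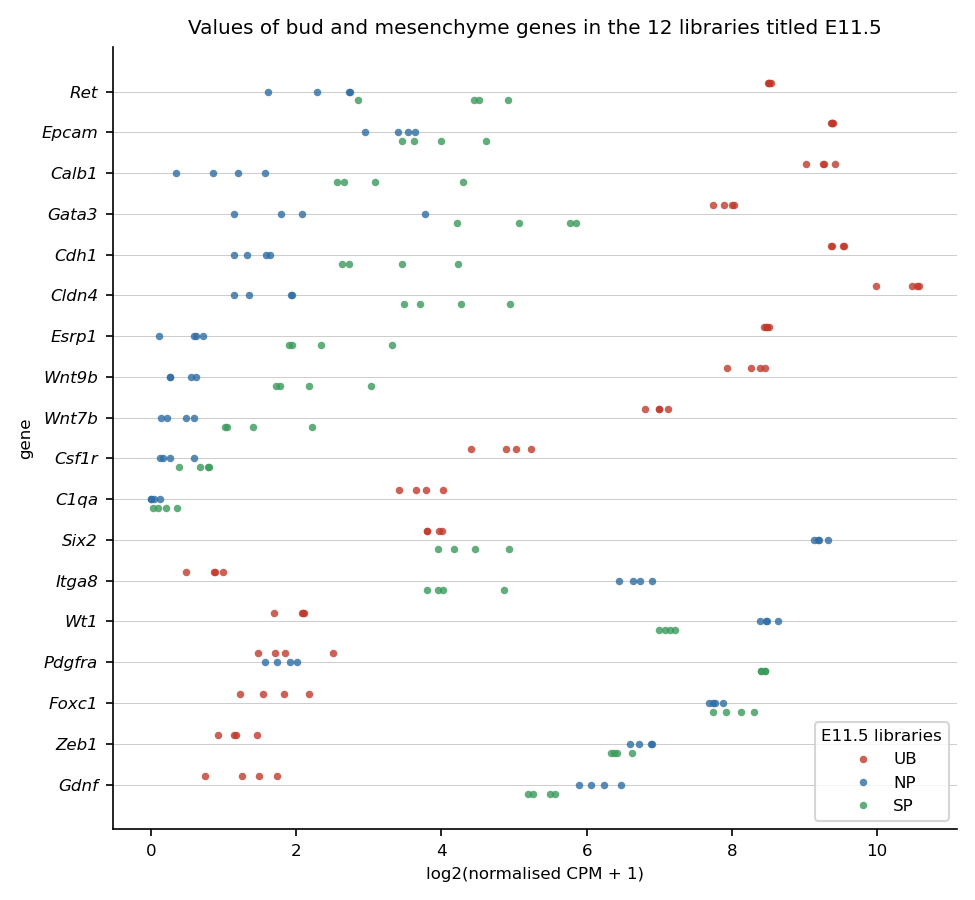
Each point is 1 library titled E11.5, with log2(normalised CPM + 1) on the x axis and 18 genes on the y axis (red UB, blue NP, green SP, 4 libraries each). Bud and macrophage genes are highest in all 4 UB libraries, and the genes from Six2 down are highest in NP, in SP or in both.

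Epithelial genes led the bud-high class. The gene lists used here and below were chosen with earlier results of these data known, so their shares are descriptions. Of 34 genes tested for cell junctions, polarity and epithelial proteases, the gate gene Epcam left aside, 33 were bud-high (17.1% over all genes tested) and none bud-low, and the median difference over the list was 4.72 against NP and 4.87 against SP, beside -0.0285 and 0.00544 over all genes tested. In 2 of the 33 every NP and SP value was under 1, so that they had passed the filter through UB alone. Without such genes 31 of 32 were bud-high, and 14.9% over all genes. The 10 bud-high genes with the largest smaller difference were Cldn4, Cdh1, Esrp1, Calb1, Wnt9b, Cldn3, Cldn7, St14, Krt8 and F2rl1, among them claudins, a cadherin and a keratin. Cldn4, a tight-junction claudin, was at 1425, 1499, 1010.2 and 1519 in UB, 1.21 to 2.86 in NP and 10.2 to 29.7 in SP. It exceeded NP by 8.8 ± 0.28 and SP by 6.3 ± 0.28 (adjusted p = 1.7e-11 and 3.5e-10). Cdh1, the epithelial cadherin, was at 737, 660.2, 666 and 747 in UB, 1.21 to 2.12 in NP and 5.2 to 17.7 in SP, a difference of 8.03 ± 0.27 and 6.19 ± 0.27 (adjusted p = 2.7e-11 and 3e-10). Esrp1, a splicing factor that sets epithelial exon choice, was at 346 to 362 in UB, 0.0779 to 0.65 in NP and 2.75 to 9.02 in SP. For all 3 genes the lowest UB library was far above the highest mesenchyme library. The 1 member that was not bud-high was Tjp1, the tight-junction scaffold ZO-1, at 266 to 309 in UB, 253 to 279 in NP and 188 to 268 in SP, which passed the test against SP alone (0.29 ± 0.1, adjusted p = 0.028).

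Keratins and the basement membrane followed the same pattern, with 24 of 27 genes bud-high (17.1% over all genes tested), or 20 of 23 without those under 1 in all NP and SP libraries, and median differences of 2.6 against NP and 2.32 against SP. Krt8, a keratin of simple epithelia, was at 1084, 1040.2, 1042 and 1113 in UB, 6 to 8.53 in NP and 10.4 to 29.9 in SP. Lama1, a laminin chain of early basement membranes, was at 424 to 494 in UB, 46.4 to 58.6 in NP and 43.8 to 112 in SP, and exceeded NP by 3.14 ± 0.23 and SP by 2.39 ± 0.23 (adjusted p = 5.6e-08 and 8.1e-07). The basement membrane list was split by gene and not uniform. Nid1, the laminin-binding linker nidogen, was bud-low, with 5.1 to 7.48 in UB, 52.6 to 65.5 in NP and 286 to 312 in SP. Frem1 was bud-low as well, at 3.41 to 5.95 in UB, 114 to 162 in NP and 147 to 332 in SP, whereas its partners in the FRAS/FREM complex, Fras1 and Frem2, were bud-high.

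Genes of the mesenchymal list were lower in UB than in SP throughout, and lower than in NP in part. Of 30 genes tested for mesenchymal matrix and transition, 19 were bud-low (17.2% over all genes tested) and none bud-high, with a median difference of -1.17 against NP and -3.97 against SP. Without the 4 that were under 1 in every UB library, 16 of 26 were bud-low, and 15.7% over all genes. All 30 were called lower in UB than in SP. Against NP, 19 were lower, 10 did not pass and 1 was higher. The higher one was Fn1, the matrix protein fibronectin, at 949 to 1076 in UB, 703 to 854 in NP and 3445 to 4991 in SP (0.4 against NP, adjusted p = 0.012). Among those that did not pass against NP were the collagen genes Col1a2 (-0.1, adjusted p = 0.75) and Col6a1 (0.32, adjusted p = 0.29). Zeb1, a repressor of epithelial genes, was at 0.904, 1.25, 1.74 and 1.21 in UB, 95.5 to 118 in NP and 80 to 97.2 in SP. The difference was -5.6 ± 0.12 from NP and -5.26 ± 0.12 from SP (adjusted p = 6.1e-13 and 1.2e-12). Cdh2, the mesenchymal cadherin, was at 9.91 to 13.3 in UB, 247 to 268 in NP and 176 to 203 in SP. The epithelial cadherin Cdh1 was thus bud-high and the mesenchymal Cdh2 bud-low. Vim, the intermediate filament vimentin, was at 88 to 105 in UB, 223 to 289 in NP and 1004 to 1638 in SP, so that the step from UB to NP was much smaller than the step from UB to SP. Col3a1, a fibrillar collagen, showed the same order, with 5.65 to 12.5 in UB, 20.8 to 24.7 in NP and 1576 to 2041 in SP. Its call against NP was lost with all 36 libraries in 1 fit (adjusted p = 0.069) and with the UB libraries titled E12.5 (adjusted p = 0.94), and kept when the first of those was left out (adjusted p = 7.1e-06).

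The 10 bud-low genes with the largest smaller difference were Foxc1, Hoxc10, Bmper, Foxc2, Des, Cped1, Nr2f1, Zeb1, Shisa3 and Wt1. Foxc1, a forkhead factor that restricts where the bud forms, was at 1.91, 3.5, 2.57 and 1.35 in UB, 204 to 233 in NP and 213 to 315 in SP, a difference of -6.07 ± 0.17 and -6.33 ± 0.17 (adjusted p = 7.7e-12 and 4.7e-12). Wt1, which the mesenchyme needs to induce the bud, was at 2.23 to 3.29 in UB, 333 to 396 in NP and 127 to 147 in SP, a difference of -6.5 ± 0.1 and -5.12 ± 0.1. Des, the muscle filament desmin, was at 2.58 to 4.2 in UB, 252 to 299 in NP and 172 to 211 in SP. In all 3 genes every UB library lay below every library of both mesenchymes. Of the progenitor lists, with 1 gate gene left aside in each, 15 of 19 nephron progenitor genes and 15 of 19 stromal genes were bud-low (17.2% over all genes tested) and none was bud-high. The median difference of the nephron progenitor list was -4.86 against NP and -2.32 against SP, and that of the stromal list -1.56 and -3.61. Without the genes under 1 in every UB library the counts were 12 of 16 and 12 of 15, and 15.7% over all genes. Cited1, a cap mesenchyme marker, was no bud-low gene, with 18.6 to 21.6 in UB and 18.4 to 42.6 in NP (difference -0.58 ± 0.28, adjusted p = 0.11) against 3.98 to 12.1 in SP. Six2 in UB was lower than in SP by a small margin (-0.49 ± 0.16, adjusted p = 0.019), and this call was lost when each mesenchyme was fitted separately (adjusted p = 0.053), with all 36 libraries in 1 fit (adjusted p = 0.35), and when UB-2 or UB-3 was left out. With the UB libraries titled E12.5 the difference was -0.06 (adjusted p = 0.93), and -0.82 (adjusted p = 0.007) without the first of them, where Six2 was at 94.8 against 7.43 to 13.5.

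**Figure D3:**
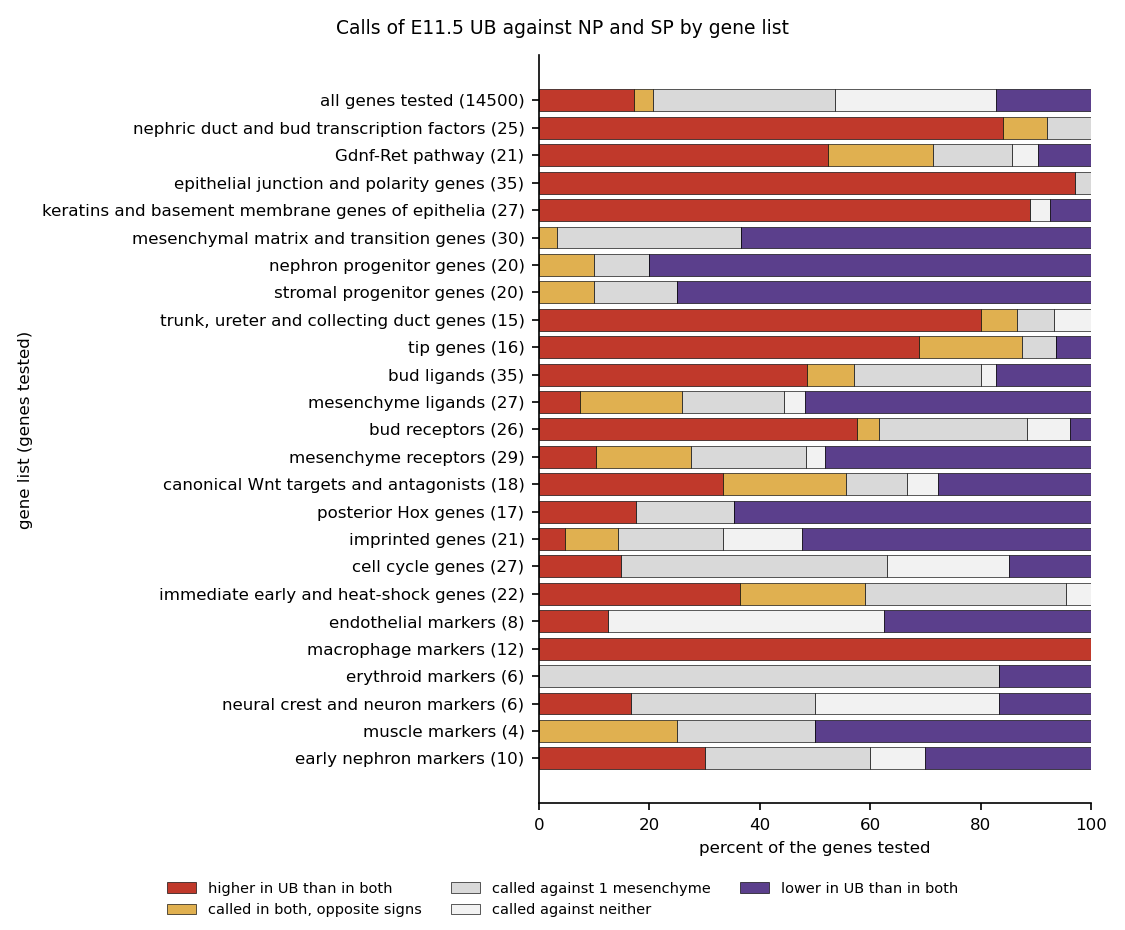
For each gene list, the bar splits the genes tested (number in brackets) by their call, in percent: higher in UB than in both mesenchymes (red), called in both with opposite signs (yellow), called against 1 mesenchyme (grey), against neither (near white) and lower than in both (purple). All 14500 genes stand at the top as the background, with 17.1% red and 17.2% purple, and the lists of epithelial and duct genes are mostly red. The macrophage bar is red through genes that passed the filter in UB alone and is not read. Gate genes are counted in the lists that hold one.

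Start-site sequences of the leading genes are shown because Zeb and Snail proteins bind the E-box hexamer CACCTG and Zeb1 was among the leading bud-low genes. RefSeq windows of 300 bases (250 before and 50 after the transcript start, GRCm38.p6) were searched for it on both strands, using the first window of each gene. The motif and the genes were looked at after the expression results were known, so the shares are descriptions. Among the 10 leading bud-high genes Cdh1, Esrp1, Calb1, St14 and F2rl1 had no entry, and among the bud-low genes Hoxc10, Foxc2, Zeb1 and Wt1. Of the 10 leading bud-high genes, 5 had a window and 4 of these held the hexamer, and of the 10 leading bud-low genes, 6 had a window and none held it. The windows of these 4 bud-high genes and of Foxc1 follow, 5′ to 3′ on the strand of the gene, with each match in capitals.
Cldn4 (chr5:134946885-134947184, minus strand): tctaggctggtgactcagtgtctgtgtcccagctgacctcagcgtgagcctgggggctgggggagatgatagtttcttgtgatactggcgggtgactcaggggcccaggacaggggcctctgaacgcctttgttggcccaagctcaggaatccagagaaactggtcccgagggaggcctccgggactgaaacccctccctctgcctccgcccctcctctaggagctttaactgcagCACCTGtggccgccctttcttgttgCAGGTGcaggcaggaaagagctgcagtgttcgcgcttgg
Cldn3 (chr5:134985964-134986263, plus strand): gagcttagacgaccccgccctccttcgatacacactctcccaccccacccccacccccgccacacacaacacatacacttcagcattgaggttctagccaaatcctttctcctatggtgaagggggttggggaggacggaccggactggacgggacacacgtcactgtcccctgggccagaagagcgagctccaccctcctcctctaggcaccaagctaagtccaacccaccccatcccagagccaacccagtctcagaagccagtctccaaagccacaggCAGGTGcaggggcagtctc
Wnt9b (chr11:103749772-103750071, minus strand): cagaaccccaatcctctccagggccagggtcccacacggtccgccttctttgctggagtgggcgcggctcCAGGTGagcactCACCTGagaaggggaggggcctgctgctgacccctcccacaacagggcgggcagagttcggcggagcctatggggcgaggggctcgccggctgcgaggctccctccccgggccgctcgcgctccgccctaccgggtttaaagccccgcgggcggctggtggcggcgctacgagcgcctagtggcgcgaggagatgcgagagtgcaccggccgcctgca
Krt8 (chr15:102004293-102004592, minus strand): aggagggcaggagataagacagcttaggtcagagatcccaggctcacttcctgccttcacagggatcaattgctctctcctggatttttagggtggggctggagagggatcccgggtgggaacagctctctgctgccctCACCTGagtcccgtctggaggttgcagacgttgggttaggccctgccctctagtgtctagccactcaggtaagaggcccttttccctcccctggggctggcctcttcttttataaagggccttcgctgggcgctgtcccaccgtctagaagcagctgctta
Foxc1 (chr13:31806396-31806695, plus strand): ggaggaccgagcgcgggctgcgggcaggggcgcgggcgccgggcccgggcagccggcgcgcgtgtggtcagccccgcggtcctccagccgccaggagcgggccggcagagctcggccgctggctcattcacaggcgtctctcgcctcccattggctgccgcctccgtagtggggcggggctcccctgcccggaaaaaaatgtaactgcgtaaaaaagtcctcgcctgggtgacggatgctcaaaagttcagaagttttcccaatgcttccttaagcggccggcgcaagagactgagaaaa

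In Cldn4 the matches began at positions -14 and 12 from the start, in Cldn3 at 32, in Wnt9b at -180 and -168, and in Krt8 at -111. Across all 27025 genes with a window 20% held the hexamer, and across the 10210 tested genes with one 17.7% did. Among bud-high genes the share was 29.5% (542 of 1838 windows), and among bud-low genes 12% (218 of 1821). The share rose with the size of the bud difference: it was 23%, 32.8%, 36.7% and 52% in bud-high genes whose smaller log2 difference was up to 1, 1 to 2, 2 to 3 and over 3. In bud-low genes of the same steps it was 12.2%, 11.3%, 13.9% and 8.06%. For other E-box hexamers the shares along the same steps of bud-high genes were 15.5%, 16.2%, 22.3% and 13.3% for CAGCTG, 11.5%, 13%, 16.3% and 16% for CATCTG, and 10.4%, 5.74%, 6.98% and 10.7% for CACGTG. A site of the grainyhead type, AACCNGTT, was held by 2.23% of bud-high and 1.75% of all tested windows, and by 1.79%, 3.19%, 0.93% and 4% along the steps of bud-high genes, the last being 6 of 150 windows. The median GC content of the windows was 60.7%, 61.5%, 59% and 61.3% along the 4 steps of bud-high genes, 64.3%, 65.3%, 64% and 62.2% along those of bud-low genes and 61.3% over all tested genes. The windows of bud-low genes were thus richer in GC, and its part in the shares was not tested. A hexamer match is a matter of letters, and binding was not measured.

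**Figure D4:**
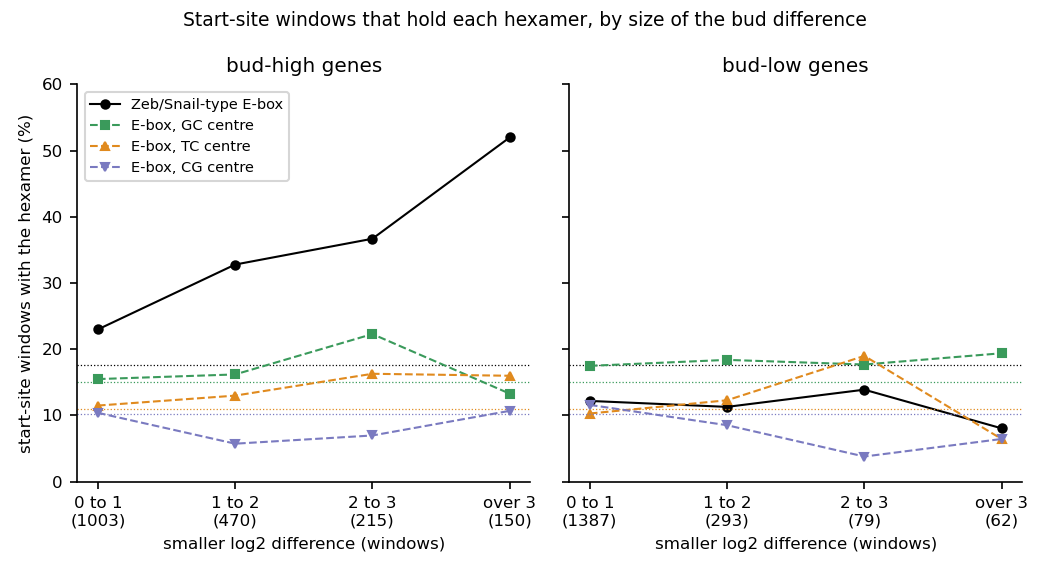
The share of RefSeq start-site windows that hold each E-box hexamer (y axis, percent) is plotted against the smaller of the 2 log2 differences of the gene (x axis, number of windows in brackets), for bud-high genes at left and bud-low genes at right. Dotted lines give the share over all tested genes in the same colour, and the Zeb/Snail-type E-box (black) climbs from 23% to 52% in bud-high genes while staying between 8.06% and 13.9% in bud-low genes.

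Transcription factors of the nephric duct and bud came next. Of 25 tested, 21 were bud-high (17.1% over all genes tested), or 17 of 21 without those under 1 in all NP and SP libraries, and none was bud-low, with median differences of 3.05 against NP and 3.84 against SP. Gata3, which guides the duct and keeps Ret expressed, was at 259.9, 212, 254 and 236 in UB, 1.2 to 12.7 in NP and 17.6 to 56.7 in SP, a difference of 5.72 ± 0.47 and 2.69 ± 0.47 (adjusted p = 1.8e-07 and 0.00022). Among the SP libraries Gata3 was at 53.6 and 56.7 in SP-1 and SP-2 and at 32.6 and 17.6 in SP-3 and SP-4, all below UB. Lhx1, a LIM factor of the duct, was at 64.3 to 85.2 in UB, 0.117 to 10.9 in NP and 0.608 to 1.63 in SP. Tfap2b was at 90.5 to 117 in UB and at most 3.02 in the mesenchymes. The 4 other members were not confined to the bud. Pax2, needed in duct and mesenchyme alike, was at 406 to 469 in UB and 435 to 544 in NP (difference -0.09 ± 0.21, adjusted p = 0.75) against 5.84 to 14.9 in SP. Pax8 likewise did not pass against NP (0.16 ± 0.34, adjusted p = 0.74). Sox9 was higher in UB than in NP and lower than in SP, with 141 to 205, 40.7 to 97.5 and 225 to 341, and so was Bcl11a.

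In the GDNF-RET pathway, the ligand and the receptors lay on opposite sides. Gdnf itself was at 0.68 to 2.33 in UB, 58.7 to 88 in NP and 35.5 to 46.3 in SP, a difference of -4.86 ± 0.19 and -4.07 ± 0.19 (adjusted p = 9.4e-11 and 5.1e-10). Gfra1, the co-receptor, was at 437, 395, 449 and 441 in UB, and unlike Ret it was well present in NP, at 112, 145, 152 and 148, with 15.2 to 31.7 in SP. The difference of Gfra1 was 1.63 ± 0.18 from NP and 4.32 ± 0.18 from SP. Of 20 genes on the pathway list besides the gate gene Ret, 10 were bud-high and 2, Gdnf and Kif26b, bud-low (17.1% and 17.2% over all genes tested). Etv4 and Etv5, ETS factors induced by RET signalling, were bud-high. Etv4 was at 237 to 265 in UB, 113 to 155 in NP and 27.2 to 81 in SP (0.91 ± 0.24 and 2.51 ± 0.24, adjusted p = 0.0061 and 7.8e-07), and Etv5 at 136 to 164, 88.5 to 103 and 47.2 to 100.1. The feedback inhibitor Spry1 was at 159.6 to 212 in UB against 55.4 to 80.2 in NP and 52 to 75.1 in SP.

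Genes known from the bud tip and from its trunk were looked at next. Of 15 tip genes tested besides Ret, 10 were bud-high and 1, Bmp2, bud-low (17.1% and 17.2% over all genes tested). Wnt11, a tip ligand that sustains Gdnf in the mesenchyme, was not bud-high. It was at 77.8, 87.4, 55.5 and 82.8 in UB, 4.85 to 18.1 in NP and 161, 143, 101 and 74.5 in SP, which overlapped with UB (-0.61 ± 0.32, adjusted p = 0.12). Mmp14 and Adamts18, a membrane protease and a secreted one, were between the mesenchymes, above NP and below SP. Of the trunk, ureter and collecting duct list, 15 of 24 genes were tested and 12 were bud-high (17.1% over all genes tested). In 6 of the 12 every NP and SP value was under 1, so that these had passed the filter through UB alone, and nothing is read from the count. Without such genes 6 of 9 were bud-high, namely Calb1, Cldn8, Slco4c1, Wnt6, Wnt7b and Wnt9b. Slco4c1 stands on the tip list as well and is counted in both. Of the others on the list, Avpr2, Foxi1, Psca, Tmem45b, Trp63, Upk1b and Upk2 did not reach the filter, and Upk3a and Aqp2 were not analysed here.

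**Figure D5:**
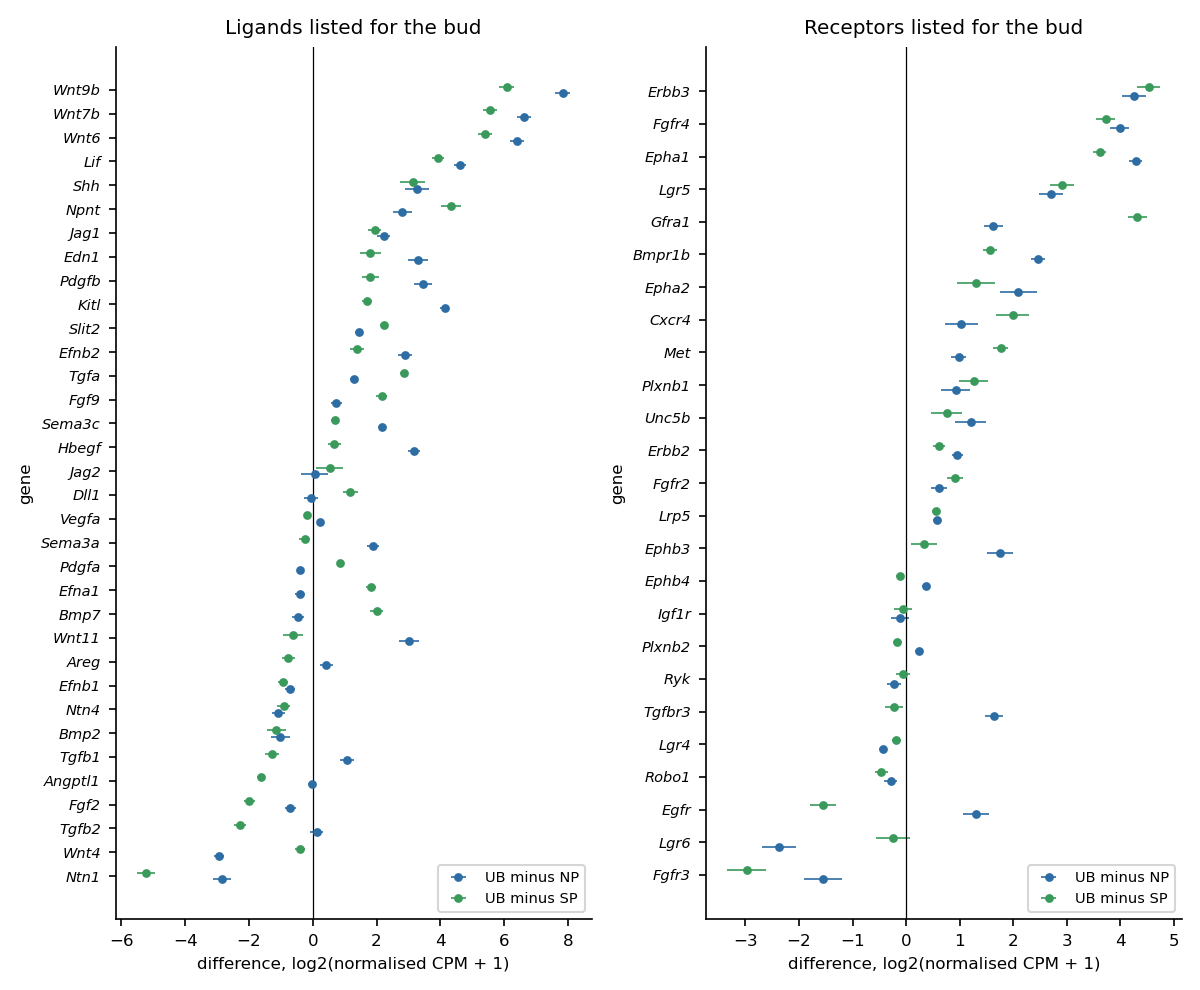
Ligands (left) and receptors (right) listed for the bud are ordered by the lower of their 2 differences, with the log2 difference of UB from NP (blue) and from SP (green) on the x axis and bars for the standard error (limma, n = 4 libraries a group). Wnt9b, Wnt7b and Wnt6 lead the ligands plotted and Erbb3 the receptors, among which the gate gene Ret is not shown, while Ntn1 and Fgfr3 stand lowest.

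The signals that the bud could send were divided. Of 35 ligands tested of those listed for the bud, 17 were bud-high and 6 bud-low (17.1% and 17.2% over all genes tested), with median differences of 1.29 and 1.18. Without those under 1 in all NP and SP libraries 16 of 34 were bud-high, and 14.9% over all genes. Without those under 1 in every UB library 5 of 32 were bud-low, and 15.7% over all genes. Wnt9b, the bud signal that both renews and induces nephron progenitors, was at 335, 305, 242 and 349.8 in UB, 0.195 to 0.537 in NP and 2.29 to 7.15 in SP, a difference of 7.83 ± 0.24 and 6.08 ± 0.24 (adjusted p = 1.3e-11 and 1.1e-10). Wnt7b, which patterns the medulla, was at 111 to 138 in UB, 0.103 to 0.507 in NP and 1.02 to 3.65 in SP. Wnt6 was at 276 to 438, 2.46 to 4.13 and 4.34 to 9.73. Wnt9b and Wnt7b were thus under 1 in every NP library, and Wnt6 was not. Lif, a cytokine able to induce tubules in isolated mesenchyme, was at 33.1, 34.8, 19.5 and 38 in UB, at most 0.479 in NP and at most 1.31 in SP. Npnt, the nephronectin bound by the ITGA8 integrin of nephron progenitors, was at 394 to 443 in UB, 48.2 to 71.5 in NP and 7.88 to 34.7 in SP (2.81 ± 0.31 and 4.34 ± 0.31). Kitl, the ligand of KIT, was at 230.3 to 266 in UB, 8.85 to 17.4 in NP and 69.3 to 86.4 in SP, so that SP ranked second. Slit2, a guidance ligand, was at 285 to 356 in UB against 107 to 128 in NP and 54.3 to 79.6 in SP, and its receptor gene Robo2 was bud-low, at 69.3 to 85.6 against 488 to 522 in NP and 103 to 155 in SP. The call of Robo2 against SP (-0.66, adjusted p = 0.00025) was lost with all 36 libraries in 1 fit (adjusted p = 0.057). Jag1, a Notch ligand, was at 184 to 241 in UB, 29.8 to 69.7 in NP and 48.2 to 65.9 in SP, and Notch1 was bud-high with it (294 to 370, 89.8 to 97.1 and 112 to 202). Ntn1, the guidance ligand netrin, was bud-low, at 1.84 to 3.18 in UB, 14.5 to 29.6 in NP and 76.1 to 199 in SP.

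Receptors listed for the bud came next. Of 25 of them besides Ret, 14 were bud-high and 1, Fgfr3, bud-low (17.1% and 17.2% over all genes tested), with median differences of 0.981 and 0.611. Erbb3, a neuregulin receptor, was at 473, 413, 451 and 479 in UB, 16.4 to 37.1 in NP and 12.4 to 23.9 in SP (4.26 ± 0.22 and 4.53 ± 0.22, adjusted p = 1.7e-09 and 8.4e-10). Met, the HGF receptor, was at 85.6 to 106 in UB, 43.2 to 55.3 in NP and 19.5 to 32.7 in SP. Its ligand Hgf was bud-low, at 0.142 to 0.603 in UB, 1.17 to 1.41 in NP and 9.14 to 28.8 in SP. The FGF receptors ran in opposite directions. Fgfr2, through which FGF7 and FGF10 act on the bud, was at 320 to 348 in UB, 209 to 243 in NP and 131 to 232 in SP (0.61 ± 0.15 and 0.91 ± 0.15), while Fgfr1 was at 236 to 290 against 644 to 809.8 and 495 to 548 and Fgf10 at 1.73 to 1.85 against 44.6 to 66.9 and 16.8 to 19.7. Of the lists of mesenchymal signals, 14 of 27 ligands and, besides the gate genes, 13 of 27 receptors were bud-low (17.2% over all genes tested). Without the 2 ligands under 1 in every UB library 12 of 25 ligands were bud-low, and 15.7% over all genes. The 5 exceptions that were bud-high were the ligands Angpt1 and Nrtn and the receptors Ednrb, Notch1 and Tgfbr2.

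The genes that canonical Wnt signalling is known to switch on or that limit it gave no single direction, with 6 bud-high and 5 bud-low of 18 (17.1% and 17.2% over all genes tested). Rnf43, a ubiquitin ligase that removes Wnt receptors, was at 62.9, 68.5, 60 and 70.2 in UB, 0.0779 to 0.205 in NP and 0.442 to 1.79 in SP (5.88 ± 0.17 and 4.92 ± 0.17, adjusted p = 9.7e-12 and 4e-11). Lgr5, a receptor for R-spondins, was at 26.4 to 30 in UB, 3.22 to 4.31 in NP and 1.27 to 4.47 in SP, and Tcf7 at 339 to 415, 59 to 64.8 and 40.3 to 73.1. Axin2, the feedback scaffold, was higher by smaller amounts (1.6 ± 0.22 and 0.85 ± 0.22). Sfrp2, a secreted Wnt antagonist, was bud-low, at 10.4 to 15.4 in UB, 51.7 to 96.4 in NP and 80.9 to 149 in SP.

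Posterior Hox genes were mostly bud-low, with exceptions. Of 17 tested, 11 were bud-low and 3 bud-high (17.2% and 17.1% over all genes tested), with median differences of -4.36 and -3.92. Without Hoxc8, which was under 1 in every UB library, 10 of 16 were bud-low, and 15.7% over all genes. Hoxd11, one of the group 11 genes that the metanephric mesenchyme needs, was at 1.4 to 5.19 in UB, 175 to 201 in NP and 127 to 150.2 in SP (-5.55 ± 0.2 and -5.1 ± 0.2), and Hoxc10 was at 2.27 to 3.42, 224 to 257 and 175 to 219.7. The 3 bud-high genes were Hoxb7, Hoxb8 and Hoxd8, whereas Hoxc8 of the same paralogue group as the last 2 was bud-low, at 0.178 to 0.484 in UB, 11.2 to 17.5 in NP and 6.94 to 17.4 in SP. Hoxb7, whose promoter is used to drive transgenes in the bud, was at 42, 31, 40.3 and 35.1 in UB, 8.86 to 13.6 in NP and 4.37 to 10.4 in SP (1.77 ± 0.2 and 2.25 ± 0.2). Within the HoxD cluster Hoxd8 was bud-high and Hoxd9, Hoxd10, Hoxd11 and Hoxd12 were bud-low, although Hoxd9 turned when the UB libraries titled E12.5 were used (0.35 against NP and 0.76 against SP).

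Imprinted genes, many of which act on fetal growth, were bud-low in 11 of 21 and bud-high in 1 (17.2% and 17.1% over all genes tested). Igf2, the fetal growth factor, was at 1508, 1283, 1148 and 1602 in UB, 1977 to 2376 in NP and 2860.1 to 4051 in SP (-0.71 ± 0.14 and -1.36 ± 0.14, adjusted p = 0.00069 and 1.4e-06). The 1 bud-high member was Phlda2, a growth-limiting gene of the placenta, at 27.8 to 31.4 in UB, 9.94 to 16.4 in NP and 8.85 to 16.4 in SP. Its direction was turned when the UB libraries titled E12.5 took the place of those titled E11.5 (-0.47 and -0.31, adjusted p = 0.049 and 0.17), a difference that passed against NP alone and did not pass there without the first of those libraries (adjusted p = 0.052). Of 27 cell cycle genes, 4 were bud-high and 4 bud-low, shares near the background of 17.1% and 17.2%. Among the bud-high ones, Cdkn1a was at 207 to 234 in UB, 31.7 to 48.7 in NP and 41 to 64.7 in SP (2.4 ± 0.14 and 2.09 ± 0.14). Ccnd1, the G1 cyclin, was at 563 to 613 in UB, 121 to 167 in NP and 186 to 263 in SP (2.09 ± 0.11 and 1.47 ± 0.11). Mki67 did not pass in either contrast (adjusted p = 0.74 and 0.65), with NP and SP each spread widely. Of 22 immediate early and heat-shock genes, which cell dissociation is known to induce, 8 were bud-high and none bud-low (17.1% and 17.2% over all genes tested), 5 lay between the mesenchymes and 8 differed from 1 only, with median differences of 1.45 from NP and -0.107 from SP. Among the bud-high ones was Atf3 at 174 to 357 in UB, 57.7 to 100.1 in NP and 142 to 214 in SP. The part of dissociation in these values was not tested.

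The 4 UB libraries resembled each other in most bud-high genes, with a median span of 0.277 on the log2 scale between the lowest and the highest. Only 44 of the 2485 bud-high genes spanned more than 1, and 32 of the 44 were lowest in UB-3, while 21 were highest in UB-2 and 18 in UB-4. The widest spans, ranked after the values had been seen, belonged to Shh, Krt5, Sp8 and Foxa1. Shh, a ligand of the ureter and of the urogenital sinus, was at 8.91, 22.1, 2.95 and 13 in UB, at most 0.234 in NP and at most 0.389 in SP. Krt5, a keratin of basal urothelium, was at 5.26, 9.73, 1.21 and 8.64, and Foxa1, a forkhead factor of endodermal and distal urinary epithelium, at 10.3, 12.3, 2.98 and 14.1. UB-3 was thus lowest in all 3, and it was lowest again in Hoxd13 (5.55, 15.4, 0.0755 and 7.68 in UB). Next in rank came Ccl4, Fcgr3, Laptm5, Spi1, Adgrd1, Edn1, Ccl2, Arc, Ccrl2, Fxyd2 and Trpv6. Of these Spi1, a myeloid transcription factor, was at 8.85, 8.24, 4.12 and 12.8. Shh, Krt5 and Foxa1 were under 1 in every NP and SP library and so entered the test through UB alone, and both calls of Krt5 were lost with the UB libraries titled E12.5 once the first of them was left out (adjusted p = 0.093 and 0.11). Macrophage and immediate early genes moved with this pattern. UB-3 was lowest in all 12 macrophage markers, whose sum was 100.4 there against 151, 160.3 and 169 in UB-1, UB-2 and UB-4. It was also lowest in 20 of 22 immediate early and heat-shock genes, whose sum was 4409.8 against 5505, 5755 and 5786. Among all bud-high genes, a class that holds 8 of those 22, it was lowest in 33.1%. The share over all genes tested was not computed. The part of macrophage and immediate early genes in the spans was not tested.

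The libraries titled E12.5, which share no sample with the comparison above, were fitted separately in the same way, with the same doubt about the labelled day of UB. Several of them stood apart from the others of their group. UB-1 correlated with the other UB libraries at 0.9583 to 0.9621, while pairs among the others reached 0.9953, and it held mesenchymal transcripts. Col3a1 was at 382 in UB-1 against 5.76 to 10.7 in the other 3, Cdh11 at 123 against 9.94 to 15, Des at 65.8 against 1.23 to 3.57, Pdgfra at 50.8 against 1.75 to 3.09 and Itga8 at 73.7 against 1.46 to 2.37. The nephron progenitor list summed to 851 in UB-1 against 124 to 182, and the endothelial markers to 145 against 22.5 to 26.4. NP-1 and SP-1 were highest in immediate early and heat-shock genes, whose sum was 4415 in NP-1 against 1497 to 1548 in the other NP libraries and 13930.1 in SP-1 against 2872 to 3497, with 3791 to 4154 in UB. Hspa1a, a heat-shock gene, was at 194 in NP-1 against 1.1 to 1.18 and at 512 in SP-1 against 6.65 to 7.32. NP-1 correlated with the other NP libraries at 0.9555 to 0.9779 and SP-1 with the other SP libraries at 0.9608 to 0.9691. NP-2 stood apart as well, with correlations of 0.9555 to 0.9808 against 0.9959 between NP-3 and NP-4, and with Mki67 at 6.45 against 263 to 455. The results are therefore given with all 12 libraries, without UB-1, without NP-2, and without all 3 libraries numbered 1, the settings that leave libraries out having been chosen after these values were seen.

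With all 12 libraries, 1796 of 14543 genes (12.3%) were higher in UB than in both mesenchymes and 1095 (7.53%) were lower. Of the 2366 bud-high genes that could be tested, 1555 (65.7%) were bud-high again, and none was bud-low. Of the 2451 bud-low genes tested, 946 (38.6%) were bud-low again. Without UB-1, 1647 (69.6%) of the bud-high and 1171 (47.8%) of the bud-low genes recurred, where the classes held 13.5% and 9.91% of all genes. Without the 3 libraries numbered 1, 1774 (75%) and 1482 (60.5%) did, where the classes held 15.6% and 13.7%, and 3 bud-low genes were bud-high. Without NP-2, 1584 (66.9%) and 949 (38.7%) did, with classes of 12.7% and 7.63%. With the library number as a block, 1721 (72.7%) and 1148 (46.8%) did, with classes of 14.4% and 9.72%; the numbers went together between NP and SP in these libraries but not between UB and either. In 279 of the bud-high genes every NP and SP library titled E12.5 was under 1, and without them 1276 of 2087 (61.1%) recurred where 10.3% of all genes were in the class. The recurring share rose with the size of the difference in all 5 fits. Among bud-high genes whose smaller difference was up to 0.5, 20.4% recurred, and 61.1%, 89.2%, 98.9% and 100% did in the steps of 0.5 to 1, 1 to 2, 2 to 3 and over 3. Among bud-low genes the shares were 18.1%, 36.5%, 63.1%, 81.4% and 96.7% with all libraries and 21.2%, 47.3%, 82%, 94.9% and 100% without UB-1. All 217 bud-high genes past 3 were therefore bud-high at both titled days, 64 of them with every mesenchyme value titled E12.5 under 1, and 89 of the 92 bud-low genes were bud-low at both, or all 92 without UB-1. By list, 34 of 35 junction genes, 20 of 24 duct factors and 16 of 34 bud ligands were bud-high in these libraries, and 11 of 30 mesenchymal matrix genes, 8 of 20 nephron progenitor genes and 10 of 19 stromal genes were bud-low (12.3% and 7.53% over all genes tested). The junction, nephron progenitor and stromal lists each count 1 gate gene here. Genes that entered through 1 side alone are kept in these counts, among them the duct factors Ehf and Foxa1, under 1 in every mesenchyme library. Without UB-1 the numbers were the same for junction genes and duct factors, 14 of 34 for bud ligands, 23 of 30 for mesenchymal matrix genes, 12 of 20 for nephron progenitor genes and 13 of 19 for stromal genes. Of the 22 immediate early and heat-shock genes, 2 were bud-high with all libraries and 8 without the 3 libraries numbered 1. Cdh1 exceeded NP by 6.39 and SP by 8.29 in these libraries (adjusted p = 7.9e-08 and 4.9e-09), and Wnt9b by 6.74 and 7.27 (adjusted p = 3.6e-08 and 9.1e-09). Wnt11 was bud-high there (4.22 and 1.11, adjusted p = 2.5e-06 and 0.033), a call that was lost against SP when SP-2, SP-3, SP-4 or any 1 of the UB libraries was left out (adjusted p = 0.051 to 0.077) and kept without the 3 libraries numbered 1 (adjusted p = 2.9e-06). With all libraries, Hoxd9 was the 1 bud-low gene that turned bud-high, from -0.83 and -0.42 to 0.6 and 0.6 (adjusted p = 4.1e-06, 0.0015, 0.0095 and 0.0073).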

How the data were processed

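RNA-seq had been done on sorted mouse cells with a stranded mRNA library kit and paired-end sequencing. Per the methods, Cutadapt trimming and STAR alignment preceded filtering and normalisation of counts, with edgeR for the comparisons. The counting program is not given in the sources used here, and they name the genome GRCh38 although the gene identifiers are mouse Ensembl identifiers. The deposited values are normalised CPM, recorded here as a signal because the scaling factors of the authors are built in. Each value was a whole multiple of what 1 read is worth in its library (100% of values, tolerance 0.001 reads), so whole reads were recovered for depth and for the count-based alternatives. Depth was 24000662 to 43149557 reads per library, and intervals or floors cover counting error only.

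Values were transformed to log2(value + 1), and genes reaching 1 in at least 4 of the 12 libraries were fitted with limma 3.58.1 (trend) in R 4.3.3, with 3 group means and the contrasts UB minus NP and UB minus SP. Calls were made at an adjusted p under 0.05 (Benjamini-Hochberg). Each sample pooled the embryos of 1 mouse, and p-values measure the spread between such pools. Deviations of same-numbered E11.5 NP and SP libraries correlated at 0.5003, -0.335, 0.3657 and 0.2748, and those with UB at -0.05386 to 0.2123. In the libraries titled E12.5 the values were 0.5324 to 0.6889 and -0.0709 to 0.2157. The numbers thus paired NP with SP in the libraries titled E12.5, but UB with neither mesenchyme, and every contrast is one with UB, so they were not used as a block and the blocked values are given beside the E12.5 result. Replicates differed by 5.17 to 189.3 chi-squared units per degree of freedom, more than sampling noise. The scripts were tested on simulated data. The bud-high and bud-low genes, the gene lists and the motif were chosen with earlier results of these data known. Named genes were those of the lists, the 10 bud-high and 10 bud-low genes with the largest smaller absolute difference, the genes next to the threshold, and others stated to be picked after their values were seen. Alternatives used edgeR 4.0.16 and DESeq2 1.42.0 on recovered reads, other filters, scalings and pseudocounts, and the omission of each library. Coordinates and start-site windows are from RefSeq on GRCm38.p6. A second table repeats the same values beside group means and comparisons by the authors and was not used. The values of a few members of the gene lists are not reported here.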

Additional observations from a re-analysis of the deposited data

Results flagged for a closer look

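Over 62 genes, 169 groups of 4 libraries were looked at, and in 7 of them 1 library stood far from the other 3. Chance gives about 1 in 20, so the 7 are no more than chance would give. In SP, Itga8 was at 28.1 in SP-4 against 13 to 15.3 in the others, Lama1 at 43.8 against 102 to 112, and Lif at 0.598 against 1.23 to 1.31. In NP, NP-1 held more Tfap2b (2.53 against 0.308 to 0.403) and more Hoxb7 (13.6 against 8.86 to 9.64). In UB, UB-3 was low in Wt1 (2.23 against 3.24 to 3.29) and slightly high in Fgf10 (1.85 against 1.73 to 1.74). Each of these 7 genes kept its direction and its call against both mesenchymes when any 1 library was left out.

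Hoxd9 differed in direction between the titled days: every UB library titled E11.5 lay below every NP library (-0.83), and every UB library titled E12.5 lay above every NP library (0.6). The difference between the days itself was not tested.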

How the results depend on the processing

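Of 116 counts under alternatives, 112 stayed within 1.5 times the reported count. The 4 that did not were those of a test against a log2 difference of 1 (limma treat), which by construction asks for more: 1711 genes against NP, 2026 against SP, 805 bud-high and 356 bud-low. Leaving out 1 library at a time gave 6752 to 8128 genes against NP, 7641 to 8939 against SP, 2251 to 2662 bud-high and 2201 to 2760 bud-low genes. Leaving out 1 library titled E12.5 at a time gave 2101 to 2818 recurring bud genes where 2501 were reported, and leaving out the 3 numbered 1 gave 3256. These settings, and the one without the first UB library titled E12.5, were chosen only once the values were known. Reads recovered from the values gave 2622 bud-high and 2295 bud-low genes in edgeR and 2604 and 2596 in DESeq2, of which 2453 and 2235, and 2451 and 2451, were in the reported classes. With the UB libraries titled E12.5 in place of those titled E11.5, 2726 genes were bud-high and 2313 bud-low, of which 2017 and 1577 were in the reported classes, and the directions of Hoxd9 (0.35 against NP, 0.76 against SP) and Phlda2 (-0.47 and -0.31) were turned. Without the first of these libraries the turned values were 0.48 and 0.89 for Hoxd9, -0.5 and -0.34 for Phlda2 and -0.14 against SP for Pdgfb, while Krt5 lost both calls (0.69 and 0.63, adjusted p = 0.093 and 0.11); the cause was not tested. The replicate number as a block gave 7475 and 8394 genes, 2506 bud-high and 2524 bud-low, and at E12.5 the same block gave 2869 recurring bud genes. Not every library correlated best with its own number, and the numbers were not taken to pair UB with either mesenchyme. Of 3065 values of named genes under alternatives, 3026 kept direction and call, 30 kept direction only, 18 of them under treat, and 9 were turned as given. At this depth 3 reads are worth 0.0729 to 0.128 normalised CPM, and lower values rest on fewer reads.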

Other observations

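Lists of other cell types and of the first nephron stages are read beside the 17.1% of all genes tested that were bud-high and the 17.2% that were bud-low. Of 10 early nephron markers tested, 3 were bud-high (Ccnd1, Jag1 and Lhx1) and 3 bud-low. Of 8 endothelial markers tested, the gate gene Pecam1 included, 1 was bud-high and 3 bud-low, and of 6 neural crest and neuron markers 1 was bud-high and 1 bud-low, counts too small to be read as different from those shares. Muscle markers summed to 45.4 to 72.2 normalised CPM in UB, 278 to 355 in NP and 243 to 343 in SP, and 2 of the 4 tested were bud-low. The order of these sums was carried by Des, and without it they were 41.8 to 68 in UB, 20.9 to 64 in NP and 71.6 to 164 in SP. Of 6 erythroid markers tested, 1 was bud-low, and the 1 gonad, adrenal or germ cell marker tested differed from neither mesenchyme.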
